A study of Mus musculus with 4 samples.

Results

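The genes described here belong to the Wnt signalling pathway: the secreted Wnt ligands, their Frizzled receptors and co-receptors, the secreted antagonists and R-spondins, and the cytoplasmic and nuclear proteins that carry the signal. They were taken by name from a table of 11747 rows, each a gene or gene group, and 39 rows matched. RefSeq has 60 protein-coding mouse genes that the names cover, and 20 of them had no row in the table analysed here: 11 Wnt genes (Wnt1, Wnt2, Wnt2b, Wnt3, Wnt3a, Wnt8a, Wnt8b, Wnt9b, Wnt10a, Wnt10b and Wnt16), Dkk1, Dkk2, Dkk4, Rspo2, Rspo3, Rspo4, Sfrp4, Lef1 and Rnf43. The table comes from 4 RNA sequencing libraries of motor neuron cultures differentiated from mouse embryonic stem cells. All cells derive from the A172LoxP line and carry a transgene for a transcription factor that the antibiotic doxycycline switches on. All were grown as embryoid bodies, floating aggregates of cells, for 2 days with 0.5 µM all-trans retinoic acid and 1 µM of the Sonic hedgehog agonist purmorphamine. They were then kept for 2 to 3 more days with 2 µg/mL doxycycline (libraries 2 and 8, transgene induced) or with vehicle (libraries 1 and 7, transgene not induced), which gives n = 2 libraries per group. The labels do not say whether the pair of libraries in a group stems from separate cultures, so the spread behind each p-value may be no more than technical.

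Wnt proteins are lipid-modified signals that bind a Frizzled receptor together with the co-receptor Lrp5 or Lrp6. In the branch through beta-catenin, receptor binding recruits Dishevelled and stops a destruction complex built on Axin, Apc and Gsk3b from marking beta-catenin for breakdown, and beta-catenin then acts in the nucleus with Tcf/Lef factors. Other branches set planar cell polarity, cell movement and the course of axons. In the spinal cord Wnt ligands from the roof plate act on the growth and patterning of dorsal progenitors, and ligands made in and near the floor plate guide axons.

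Values are the authors' normalized read counts, which by their steps are the reads of a gene divided by a factor for each library. Their sums lay between 26449555 and 27047458 per library, and the reads behind them were estimated at 22434755 to 30235763. Between 67 and 35266 estimated reads stood behind each member in each library. All 11 motor neuron markers had a row and 10 of them fell with doxycycline (limma, adjusted p under 0.05). The remaining marker, Lhx3, had a value above 0 that did not pass (0.55 ± 0.17; limma, adjusted p = 0.155). Its normalized counts were 1819 and 1546 with doxycycline, against 1352 and 974 without it. Summed over all 11 markers, normalized counts were 17667 and 13763 with doxycycline, against 38005 and 35645 without it. Of 19 pan-neuronal genes with a row 15 fell, with sums of 104936 and 85307 with doxycycline and 207003 and 183446 without it. Of the 16 progenitor genes with a row, 12 had values above 0 and 4 below, and 1, Irx3, fell (limma). An unadjusted p under 0.05 (limma) was found for 10 of the 16, where 21.1% of all rows had one. Of these, Sox1, Sox2, Sox3, Nkx6-2, Pax6, Hes1 and Msi1 had values above 0, and Irx3, Lix1 and Nkx6-1 below. The groups did not overlap in 14 of the 16, and in 53.2% of all rows. Of 20 proliferation genes all had values above 0 but none passed (limma, 7 at an unadjusted p under 0.05). In cultures measured in bulk, fewer cells of a type and less RNA per cell cannot be told apart. Endoderm markers were abundant and differed between libraries of a group, as 12 genes summed to 307776 (library 2) and 726727 (library 8) with doxycycline, against 412968 (library 1) and 798433 (library 7) without it. None of these 12 genes was called (limma, 0 at an unadjusted p under 0.05), and none was listed at 0 in any library.

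With doxycycline, 2 of the 39 Wnt genes rose, the ligand gene Wnt7a and the antagonist gene Sfrp1, and 2 fell, the receptor gene Fzd8 and the antagonist gene Sfrp2 (limma on log2 values, two-sided, adjusted over all rows, threshold 0.05). The share of all rows past this test was 2.37%, with 0.579% higher and 1.79% lower. The 35 other Wnt genes did not pass. The motor neuron and pan-neuronal sums above differ between the same libraries as these 4 genes, and the part of neuron content in the calls was not tested. Of the 39, 28 had values above 0 and 11 below, and their median change was 0.14 on the log2 scale, against 0.0024 over all rows. The groups did not overlap in 24 of the 39 (17 with doxycycline above, 7 below), and in 53.2% of all rows (26.7% above, 26.5% below). These counts depend on single libraries: without library 2, 0 members were called higher and 1 lower, without library 8, 0 and 0, without library 1, 1 and 1, and without library 7, 3 and 1. The median change over the members was 0.067 without library 8 and at most 0.21 in these fits. A fit without 1 library leaves its group with a lone library, which is assumed to vary like the other group.

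**Figure D1:**
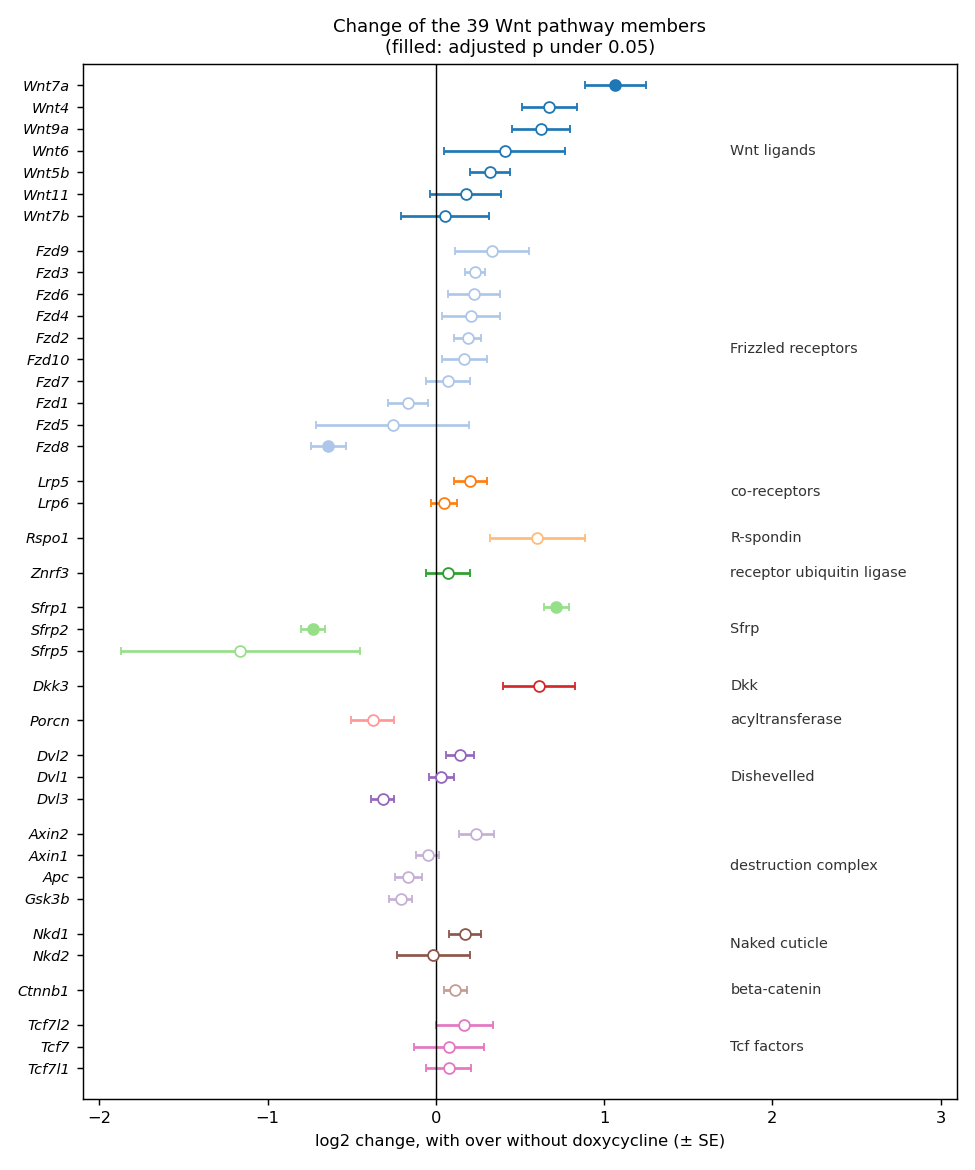
Log2 change, with over without doxycycline, of each of the 39 Wnt pathway members, ordered by role, with bars of ± SE from the limma fit over n = 2 libraries per group and filled points where the adjusted p is under 0.05. The 4 filled points are Wnt7a (1.07) and Sfrp1 (0.72) to the right of 0, and Fzd8 (-0.64) and Sfrp2 (-0.73) to the left.

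Among the ligands, Wnt7a rose about 2.09-fold and all 7 ligand genes of the set had values above 0, with a median of 0.41. Wnt7a encodes a ligand known for its part in neural progenitors and in the formation of synapses. Its normalized count was 594 in library 2 and 741 in library 8, with doxycycline, against 274 in library 1 and 365 in library 7, without it. Both doxycycline libraries lay above both others, though the libraries within each group also stood apart. The log2 change was 1.07 ± 0.18 (SE; limma, adjusted p = 0.0497), just inside the threshold. The call was lost without library 2 (1.23, adjusted p = 0.0829), library 8 (0.91, adjusted p = 0.204) or library 1 (0.86, adjusted p = 0.0686), and with TMM scaling (1.07, adjusted p = 0.0517). None of the 4 called members passed when the intensity trend of limma was left out (adjusted p = 0.0965 for Wnt7a).

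The sequence before the start of Wnt7a is shown because this gene had the largest rise of the set. It is the 250 bases upstream of the RefSeq start on GRCm38.p6, chr6:91411354-91411603, minus strand, written 5′ to 3′, with GC boxes (GGGCGG on either strand, the site of Sp-family factors) in capitals.
Wnt7a: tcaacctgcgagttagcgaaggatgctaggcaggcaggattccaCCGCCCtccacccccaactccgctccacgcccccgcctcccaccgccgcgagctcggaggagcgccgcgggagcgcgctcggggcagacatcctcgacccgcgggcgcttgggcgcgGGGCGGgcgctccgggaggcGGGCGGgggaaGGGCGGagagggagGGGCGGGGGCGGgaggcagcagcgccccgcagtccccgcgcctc
The stretch holds 6 GC boxes and 77.6% G and C, where the median over 32851 promoters of the same length is 52.4%, and 32.7% of them hold a GC box. Of 32 promoters of members of the set, 71.9% hold a GC box, so this trait is not particular to Wnt7a. None of the TCF/LEF cores CTTTGAT and CTTTGAA, the homeodomain core TAATTA, the CCAAT box and the TATA box TATAAA was found in the Wnt7a stretch on either strand. The motifs searched do not overlap one another there.

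Wnt4, a ligand of the ventral spinal cord and of kidney tubule formation, had 635 and 546 normalized counts in libraries 2 and 8 with doxycycline, against 423 and 322 in libraries 1 and 7 without it. The groups did not overlap, but the change of 0.67 ± 0.16 did not pass (limma, adjusted p = 0.10, 95% interval 0.27 to 1.08). Wnt9a had 206 and 179 normalized counts with doxycycline, against 129.6 and 119 without it. Its groups were also apart, and the change of 0.63 ± 0.17 missed the threshold (limma, adjusted p = 0.128). Wnt5b was close within each group, at 307 and 305 normalized counts with doxycycline and 246 and 244 without it, a change of 0.32 ± 0.12 (limma, adjusted p = 0.211), and it overlaps Fbxl14, a gene with a row of its own, so its count is less certain. In Wnt6, Wnt11 and Wnt7b the groups overlapped, with changes of 0.06 to 0.41. For Wnt6 library 2 alone was high, at 144 normalized counts, while library 8 had 72.3 and libraries 1 and 7 had 80.4 and 73.0. Groups were thus apart, with doxycycline above, in 4 of the 7 ligand genes, where 26.7% of all rows were. Wnt5a, a ligand of the polarity branch, has a row with no gene name in the table and was identified by its RefSeq accession, so it is outside the set. Its value lay below 0, with 160.3 and 191 normalized counts with doxycycline and 221 and 243 without it, and did not pass (-0.40 ± 0.16; limma, adjusted p = 0.234).

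Levels of different ligands can be compared per kilobase of transcript. With doxycycline Wnt7a had the highest level, 187 and 234 normalized counts per kb in libraries 2 and 8, followed by Wnt4 with 152 and 130.2 and Wnt5b with 129 in each. Without doxycycline Wnt5b (103 ± 0.605, SD, n = 2), Wnt7a (101 ± 20.2) and Wnt4 (88.8 ± 17.0) did not differ beyond their spread, Wnt7a being the lowest of the 3 in library 1 and the highest in library 7. Summed over the 8 ligand rows, Wnt5a included, the level was 761 and 748 normalized counts per kb with doxycycline, against 534 and 518 without it. Wnt7a made up 24.6% and 31.3% of that sum with doxycycline and 16.2% and 22.2% without it. The groups did not overlap in the sum, while the share of Wnt7a in library 2 lay close to that in library 7. The floor plate list, which also holds markers of the progenitors beside it, had 7 genes with a row. They summed to 6410.0 and 9196 normalized counts with doxycycline, against 3862 and 5955 without it. Of the 7, 6 had values above 0, but only Nkx2-2, a marker of those neighbouring progenitors, rose (limma, adjusted p = 0.0251). Nkx2-9 (2.04), Spon1 (0.68), Ntn1 (0.68) and Shh (0.93) had doxycycline libraries above both others but did not pass. Their adjusted p (limma) was 0.0924, 0.151, 0.178 and 0.327. Foxa2 (0.37) and Foxa1 (-0.24) had overlapping groups. Of the 7 genes, 4 had an unadjusted p under 0.05 (limma) and 5 had groups that did not overlap. Over all rows these shares were 21.1% and 53.2%. Roof plate and dorsal markers had rows for 3 of 14 genes and sums of 302 and 326 with doxycycline and 315 and 303 without it. The part of any of these cell types in the ligand levels was not tested.

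**Figure D2:**
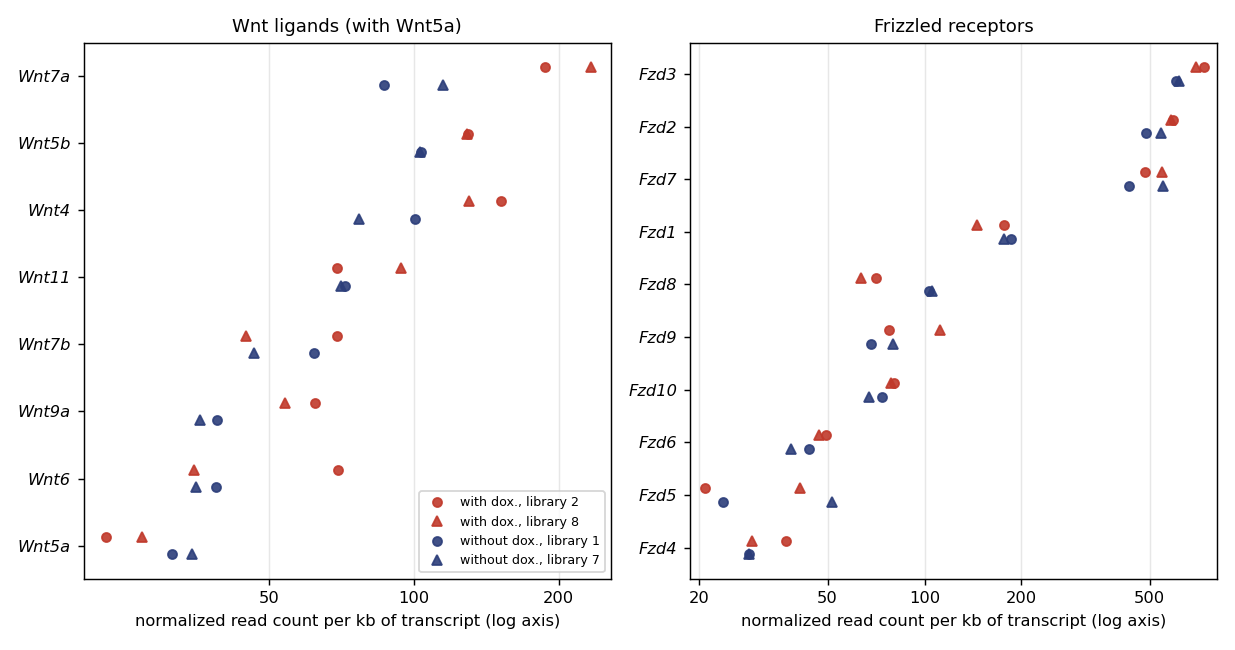
Normalized read count per kilobase of transcript (log axis) of the 8 Wnt ligand rows and the 10 Frizzled rows in each library, doxycycline libraries in red above and vehicle libraries in blue below in each row. Wnt7a lay above Wnt4 and Wnt5b in both doxycycline libraries but below both in library 1 and above both in library 7, and Fzd3, Fzd2 and Fzd7 stood above the other Frizzled genes in all 4 libraries.

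Porcn, the enzyme that adds the fatty acid Wnt ligands need for secretion and receptor binding, had 1045 and 927 normalized counts with doxycycline, against 1420.0 and 1146 without it. Its change of -0.37 ± 0.13 did not pass (limma, adjusted p = 0.180). Wls, which carries the modified ligands to the cell surface and is no member of the set, lay close to the threshold in the other direction, with 2229 and 2385 normalized counts with doxycycline and 1522 and 1732 without it (0.51 ± 0.09; limma, adjusted p = 0.0548). For both genes the groups did not overlap.

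Among the 10 Frizzled receptors Fzd8 fell, and none of the others passed. Fzd8 had 423 and 379 normalized counts in libraries 2 and 8 with doxycycline, against 618 and 631 in libraries 1 and 7 without it. The vehicle libraries lay close together and both stood above the doxycycline libraries, with a change of -0.64 ± 0.11 (limma, adjusted p = 0.0470). This call rests on all 4 libraries: the adjusted p was 0.0953 without library 2 (change -0.72), 0.207 without library 8 (-0.56), 0.118 without library 1 (-0.65) and 0.0706 without library 7 (-0.62). With quantile normalization it was 0.0565.

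Fzd3, a receptor required for the growth of major axon tracts, had the highest level of the family, 9395 and 8868 normalized counts with doxycycline and 7694 and 7836 without it. Its groups were apart, but a change of 0.23 ± 0.06 did not pass (limma, adjusted p = 0.114). Fzd2 had 2156 and 2132 normalized counts with doxycycline, against 1779 and 1983 without it (0.19 ± 0.08; limma, adjusted p = 0.252). The remaining 7 receptors had changes of -0.26 (Fzd5) to 0.34 (Fzd9). Fzd6, Fzd10 and Fzd4 had doxycycline libraries above both others, as 26.7% of all rows did, while in Fzd1, Fzd5, Fzd7 and Fzd9 the groups overlapped. Per kilobase, Fzd3, Fzd2 and Fzd7 together led the family in every library. Fzd3 made up 31.8% and 29.8% of the summed Frizzled level per kb with doxycycline and 29.5% and 27.3% without it, while Fzd8 made up 3.05% and 2.71% with doxycycline and 5.05% and 4.69% without it. The summed level itself was 2322 and 2340.0 normalized counts per kb with doxycycline and 2048 and 2255 without it, so the gene that fell is a small part of the receptor transcripts. Fzd5, singled out after its values were seen, was high in 1 library of each group, with 144 (library 2) and 284 (library 8) normalized counts with doxycycline, against 164 (library 1) and 358 (library 7) without it. Libraries 8 and 7, high for Fzd5, were also those with the higher endoderm sums, and the part of endoderm cells in its level was not tested.

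Neither co-receptor gene passed. Lrp5 had 1995 and 2170 normalized counts with doxycycline, against 1677 and 1944 without it, a change of 0.20 ± 0.10 (limma, adjusted p = 0.301). Lrp6 had 2277 and 2327 with doxycycline and 2124 and 2330 without it, a change of 0.05 ± 0.08 with a 95% interval of -0.14 to 0.24 (limma, adjusted p = 0.761). For Lrp6 the groups overlapped. Rspo1, a secreted amplifier that keeps Frizzled receptors on the surface, had 212 and 273 normalized counts with doxycycline and 122 and 205 without it (0.60 ± 0.28; limma, adjusted p = 0.290). Its groups did not overlap, with library 7 just under library 2. Znrf3, the ubiquitin ligase that removes Frizzled receptors and that R-spondins block, had 353 and 423 normalized counts with doxycycline and 375 and 359.7 without it, and the groups overlapped (0.07 ± 0.13; limma, adjusted p = 0.801).

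The smallest p-values were in the secreted Frizzled-related proteins, which bind Wnt ligands outside the cell: Sfrp1 rose about 1.64-fold and Sfrp2 fell to 0.603 of its level without doxycycline. Sfrp1 had 2686 and 2792 normalized counts in libraries 2 and 8 with doxycycline, against 1607 and 1731 in libraries 1 and 7 without it. Sfrp2 had 2991 and 2728 with doxycycline, against 4751 and 4719 without it. For each gene both groups were narrow and well apart. The change was 0.72 ± 0.07 for Sfrp1 (limma, adjusted p = 0.0205) and -0.73 ± 0.07 for Sfrp2 (limma, adjusted p = 0.0188). The call of Sfrp1 was lost without library 2 (0.74, adjusted p = 0.0527) or library 8 (0.69, adjusted p = 0.0911), and that of Sfrp2 without library 8 (-0.66, adjusted p = 0.0612).

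Within a library the ratio of Sfrp1 to Sfrp2, per kilobase, was 0.411 in library 2 and 0.469 in library 8 with doxycycline, against 0.155 in library 1 and 0.168 in library 7 without it. Sfrp2 thus remained the more abundant transcript of the pair in all 4 libraries. Since this ratio is taken within a library it does not depend on the scaling between libraries. Sfrp5, the remaining family member with a row, had 160.3 and 59.1 normalized counts in libraries 2 and 8, against 422 and 114 in libraries 1 and 7. Library 1 was far above the rest, the groups overlapped, and the change of -1.16 ± 0.71 was the largest in size and the least certain of the set (limma, adjusted p = 0.409, 95% interval -2.91 to 0.59). The summed Sfrp level was 2192 and 2032 normalized counts per kb with doxycycline and 2961 and 2812 without it.

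The stretch before the start of Sfrp2 is printed beside that of Wnt7a as the other called gene with an entry in the promoter table. It is the 250 bases upstream of the RefSeq start on GRCm38.p6, chr3:83766071-83766320, plus strand.
Sfrp2: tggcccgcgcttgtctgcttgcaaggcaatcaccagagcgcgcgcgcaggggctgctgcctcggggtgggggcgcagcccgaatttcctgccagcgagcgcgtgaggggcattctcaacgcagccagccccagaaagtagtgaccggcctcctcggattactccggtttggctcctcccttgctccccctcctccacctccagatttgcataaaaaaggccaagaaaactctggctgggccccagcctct
None of the motifs searched in Wnt7a was found in it on either strand, hence no capitals, and its G and C content is 63.6%. That says only that these letters are not in this window.

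**Figure D3:**
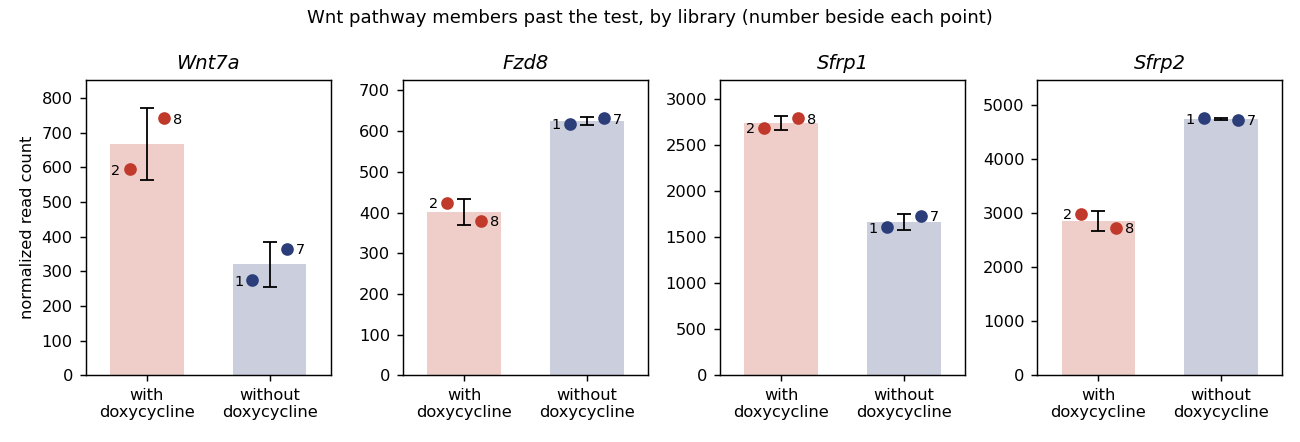
Normalized read counts of Wnt7a, Fzd8, Sfrp1 and Sfrp2 in each library (points, numbered by library), with the mean of each group as a bar from 0 and the SD over n = 2 libraries as an error bar. In all 4 panels the groups are apart, with doxycycline above for Wnt7a and Sfrp1 and below for Fzd8 and Sfrp2.

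Dkk3, a secreted protein of the Dickkopf family, had 496 and 588 normalized counts with doxycycline, against 287 and 435 without it. The groups did not overlap but lay close, and the change of 0.61 ± 0.21 did not pass (limma, adjusted p = 0.187), though it did without library 7 (0.91, adjusted p = 0.0246). The other Dickkopf genes, Dkk1, Dkk2 and Dkk4, had no row. Kremen1, a receptor for Dickkopf proteins, is outside the set. It had 1074 and 1132 normalized counts with doxycycline and 752 and 833 without it (0.48 ± 0.09; limma, adjusted p = 0.0636).

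No gene of the cytoplasmic relay in the set passed the test. Of the 3 Dishevelled genes, which link the receptors to the destruction complex, Dvl3 came closest, with 2594 and 2689 normalized counts with doxycycline against 3408 and 3174 without it (-0.32 ± 0.07; limma, adjusted p = 0.0844). Its groups were apart. Dvl2 had 2858 and 3177 with doxycycline and 2605 and 2857 without it (0.14 ± 0.09; limma, adjusted p = 0.401). Dvl1 had 2459 and 2426 with doxycycline and 2501 and 2285 without it, overlapping groups with a change of 0.03 ± 0.07 (limma, adjusted p = 0.857). Per kilobase Dvl3 made up 37.8% and 37.3% of the summed Dishevelled level with doxycycline, against 45.5% and 43.4% without it, and Dvl2 made up 35.3% and 37.4% with doxycycline, against 29.5% and 33.2% without it.

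In the destruction complex the kinase gene Gsk3b had 4594 and 4201 normalized counts with doxycycline, against 5079 and 5085 without it (-0.21 ± 0.07; limma, adjusted p = 0.172). Apc, the scaffold that holds beta-catenin, had 3692 and 3337 with doxycycline and 4107 and 3761 without it (-0.16 ± 0.08; limma, adjusted p = 0.324). Axin1, the constant scaffold, had 1888 and 1881 with doxycycline and 1915 and 1984 without it, a change of -0.05 ± 0.07 (limma, adjusted p = 0.729). In these 3 genes the doxycycline libraries lay below both others, by small amounts, as they did in 26.5% of all rows. Axin2, the scaffold that beta-catenin signalling itself turns on, had 878 and 941 with doxycycline against 718 and 825 without it, groups that were apart in the other direction. The change of Axin2 was 0.24 ± 0.10 (limma, adjusted p = 0.257), with a 95% interval of -0.02 to 0.50.

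Nkd1, an inhibitor of Dishevelled and likewise a feedback target of the pathway, had 701 and 716 normalized counts with doxycycline and 603 and 655 without it (0.17 ± 0.09; limma, adjusted p = 0.351, 95% interval -0.06 to 0.40). Nkd2 was the member with the lowest mean, 89.6 and 92.6 normalized counts with doxycycline and 97.4 and 87.0 without it, and its groups overlapped (-0.01 ± 0.22; limma, adjusted p = 0.979). Ctnnb1, the beta-catenin gene, was the member with the highest mean by far, at 34599 and 31107 with doxycycline and 30301 and 30242 without it (0.12 ± 0.07; limma, adjusted p = 0.391). Beta-catenin also joins cadherins at cell contacts, and its activity in signalling is set at the protein level, which these data do not measure.

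The 3 Tcf genes with rows had values slightly above 0, with overlapping groups. Tcf7l1, known as a repressor of Wnt targets, had 1853 and 2201 normalized counts with doxycycline and 1719 and 2135 without it (0.08 ± 0.13; limma, adjusted p = 0.793). Tcf7l2 had 1167 and 1486 with doxycycline and 1026 and 1336 without it (0.17 ± 0.17; limma, adjusted p = 0.613). Tcf7 had 310.1 and 367 with doxycycline and 265 and 385 without it (0.08 ± 0.21; limma, adjusted p = 0.870), with a 95% interval of -0.43 to 0.59. In each, libraries 8 and 7 stood above libraries 2 and 1. Lef1, also a feedback target, had no row. No row has fewer than 101 estimated reads in its highest library, so genes without a row may still be expressed at low levels.

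The core that Tcf/Lef factors bind was found before the start of 2 member genes, both ligands, and these sites are shown with the core in capitals. Of 32 promoters of 26 members in the RefSeq table, 2 hold CTTTGAT on either strand within 250 bases before the start (6.25%) and none holds CTTTGAA, where 3.21% and 4.46% of all 32851 promoters do. On GRCm38.p6 the first is chr6:119449442-119449466, minus strand, with the core starting 71 bases before the start, and the second chr7:98835052-98835076, plus strand, with the core (its reverse complement, ATCAAAG) starting 51 bases before it.
Wnt5b: taagtctctCTTTGATctgctccct
Wnt11: cgtgggcggATCAAAGcgacggtcc
Neither gene passed the test, with changes of 0.32 ± 0.12 for Wnt5b and 0.18 ± 0.21 for Wnt11. A match is a run of letters and not a shown binding site.

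Beyond the set, 130 of 154 other Wnt pathway genes in 7 lists had a row, of which 1 rose and 3 fell (limma), with a median of -0.04. These shares are near those of all rows, 0.579% higher and 1.79% lower, so the calls do not set the lists apart. In the lists with a call, 10 of 25 planar cell polarity, 6 of 29 cytoplasmic and 7 of 16 calcium genes had an unadjusted p under 0.05 (limma). The groups did not overlap in 20, 17 and 11 of these genes. Over all rows these shares were 21.1% and 53.2%. In the planar cell polarity list, with 25 rows and a median of 0.03, Celsr1 rose and Prickle1 fell. Celsr1, an atypical cadherin of the polarity complex, had 3104 and 3264 normalized counts with doxycycline, against 2034 and 2013 without it (0.65 ± 0.07; limma, adjusted p = 0.0204). Prickle1, a cytoplasmic protein of the polarity pathway, had 732 and 792 with doxycycline, against 1310.1 and 1264 without it (-0.76 ± 0.09; limma, adjusted p = 0.0220). Both genes had narrow groups that were far apart. Mapk9, a Jun kinase, came next in that list, with 1840.3 and 1713 normalized counts with doxycycline and 2373 and 2307 without it (-0.40 ± 0.07; limma, adjusted p = 0.0584).

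Of 29 destruction complex and other cytoplasmic genes, 23 had values below 0 and Apc2 fell, with a median of -0.12. Apc2, the neural relative of Apc, had 2412 and 2240 normalized counts with doxycycline, against 3768 and 3580 without it (-0.66 ± 0.07; limma, adjusted p = 0.0220). Dact1, a Dishevelled-binding protein, lay just outside the threshold, with 835 and 637 normalized counts with doxycycline and 1438 and 1244 without it (-0.87 ± 0.15; limma, adjusted p = 0.0501). Csnk1e, a casein kinase that acts on Dishevelled, had 5678 and 5338 with doxycycline and 6963 and 6433 without it (-0.28 ± 0.07; limma, adjusted p = 0.106). Of 16 genes of the calcium branch Plcb1, a phospholipase C, fell (255 and 269 with doxycycline, against 479.9 and 424 without it; -0.78 ± 0.12; limma, adjusted p = 0.0439). Camk2b, a calcium-dependent kinase, had 668 and 699 with doxycycline and 948 and 890.1 without it (-0.43 ± 0.09; limma, adjusted p = 0.0740), and Plcb4 had a change of -0.56 ± 0.12 (limma, adjusted p = 0.0840). The calls of Apc2, Celsr1, Prickle1 and Plcb1 were lost without library 8 (highest adjusted p over all alternatives 0.0911, 0.0911, 0.0765 and 0.159), those of Prickle1 and Plcb1 also without library 2, and that of Plcb1 without library 1. Without the intensity trend of limma, Apc2, Celsr1 and Plcb1 also lost their calls. Beside these falls, the 19 pan-neuronal genes had a median change of -0.86, and the part of neuron content was not tested.

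No gene passed in the other 4 lists (limma), and their counts at an unadjusted p under 0.05 stand beside a share of 21.1% over all rows. Of 15 genes of Wnt secretion and the extracellular space 12 had values above 0 (6 at an unadjusted p under 0.05, median 0.14), Wls and Kremen1 coming closest. Shisa2, which holds back Frizzled maturation, had 213 and 213 normalized counts with doxycycline and 307 and 331 without it (-0.58 ± 0.13; limma, adjusted p = 0.0834). Of 7 other Wnt receptors 6 had values below 0 (2 at an unadjusted p under 0.05, median -0.07), and Lgr5, an R-spondin receptor, had 114 and 104 normalized counts with doxycycline and 166 and 158 without it (-0.57 ± 0.18; limma, adjusted p = 0.156). Ptk7, a co-receptor of the polarity branch, had a change of 0.18 ± 0.06 (limma, adjusted p = 0.179), and Ror2, a Wnt5a receptor, one of -0.17 ± 0.08 (limma, adjusted p = 0.320). Of 18 nuclear cofactors 13 had values below 0 (4 at an unadjusted p under 0.05, median -0.07). Those with the smallest p were Ctnnbip1, which blocks the binding of beta-catenin to Tcf factors (-0.24 ± 0.07; limma, adjusted p = 0.141), Tbl1x (0.23 ± 0.07; adjusted p = 0.152) and the acetyltransferase Crebbp (-0.19 ± 0.07; adjusted p = 0.223). Of 21 known targets of beta-catenin signalling 9 had values above 0 and 12 below (6 at an unadjusted p under 0.05, median -0.13). Gbx2, a homeobox gene, came closest among them, with 403 and 453 normalized counts with doxycycline and 265 and 219 without it (0.82 ± 0.15; limma, adjusted p = 0.0541), while Jun (-0.38 ± 0.10; adjusted p = 0.112) and Myc (-0.37 ± 0.11; adjusted p = 0.143) had values on the other side of 0.

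**Figure D4:**
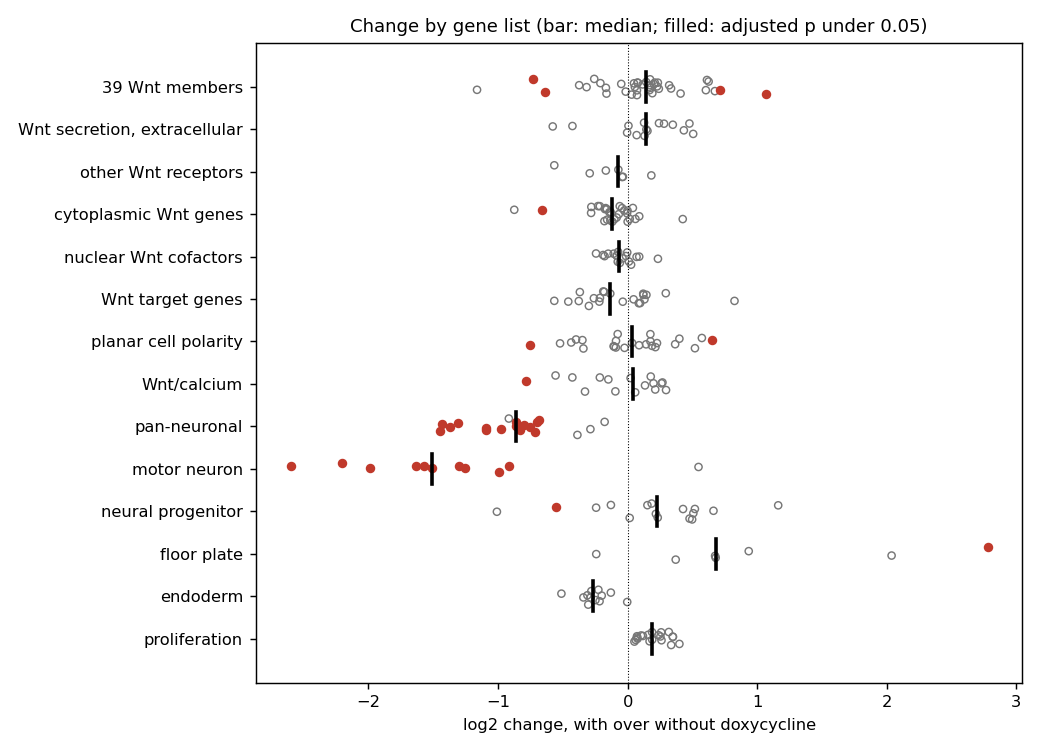
Log2 change, with over without doxycycline, of each gene with a row in the Wnt set, in 7 other Wnt pathway lists and in 6 cell type and growth lists (points; filled where the adjusted p is under 0.05; vertical bars are medians). The Wnt lists centre between -0.13 and 0.14, against -0.86 for pan-neuronal and -1.51 for motor neuron genes.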

How the data were processed

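RNA of the 4 libraries was sequenced on an Illumina HiSeq 2000 after TruSeq preparation, as the labels' protocols state. CASAVA, TopHat2, HTSeq, DESeq and the build mm9 appear in the submitters' processing notes, with no version, role or order. The deposited signal per row is a read count that the authors divided by a factor for each library, judging by the numbers: within a column, values below 2000 fall on whole multiples of a fixed step (100% within 0.1 read). The deposited values are normalized and not counts, so they were tested on a log2 scale without a count model, and numbers of reads are estimates. The sources used here do not give whether strand was used in counting, and Wnt5b and Fzd4 overlap another gene with a row, so those values are uncertain.

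Column names gave the group, and their numbers are not the labels' replicate numbers. Members were the rows whose gene name matched the family names (Wnt, Fzd, Sfrp, Dkk, Rspo, Tcf7 and the like) or Axin1, Axin2, Dvl1, Dvl2, Dvl3, Nkd1, Nkd2, Lrp5, Lrp6, Lef1, Ctnnb1, Apc, Gsk3b, Porcn, Rnf43 or Znrf3. Members, gene lists, tests and alternatives were chosen with earlier results of these data known. Every member past the test was given in full, with up to 3 members of each role with the smallest p and the one with the highest mean, and Axin2, Nkd1 and Tcf7.

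The fit was limma 3.58.1 in R 4.3.3 on log2(normalized count + 1), with an intensity trend, over rows with a mean of at least 10, which removed none of the 11747 rows (all 39 members passed). P-values are two-sided with Benjamini-Hochberg adjustment over all rows. Fold changes are on that scale, which understates changes of low genes. An exact permutation test of 2 against 2 cannot go below p = 0.333. Levels per kb use the longest GENCODE M21 transcript matched by RefSeq accession. The limma fit was tested on simulated data, where it called 42% of 1.25-fold, 94% of 1.5-fold and 100% of 2-fold changes in the right direction. The simulation gave all genes the same dispersion of 0.003, which rows with a wider spread do not share. Genes past the test in the other Wnt lists, and up to 3 with the smallest p, were named; Fzd5, Wnt5a and Fzd10os were singled out after their values were seen. Alternatives were other pseudocounts, filters, scalings and moderation, leaving out each library, and a replicate block. Values of the induced transgene are not reported here. Tables used Python 3.11.15 and pandas 2.3.3.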

Additional observations from a re-analysis of the deposited data

How the results depend on the processing

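With 2 libraries per group the median standard error over all rows was 0.098 (log2), and a change that missed the threshold is not shown to be 0. Pseudocounts of 0.5 and 5, no filter, and a mean of at least 50 left every count over the members, all rows and other pathway genes within 1.5 times. Quantile normalization gave 1 member lower, and TMM 1 higher. Robust moderation gave 132 rows higher, and 4 pathway genes higher and 5 lower. Without an intensity trend 0 members were higher and 0 lower, with 27 rows higher and 78 lower, and 0 and 1 pathway genes. Leaving out 1 library at a time gave 0 to 3 members higher and 0 to 1 lower, 2 to 156 rows higher and 42 to 338 lower, 0 to 3 pathway genes higher and 0 to 6 lower, and a member median of 0.067 to 0.21. In those fits 12 uncalled members changed sign: Dvl1 (-0.034 to 0.10), Fzd5 (-0.82 to 0.30), Fzd7 (-0.10 to 0.25), Lrp6 (-0.018 to 0.12), Nkd2 (-0.10 to 0.066), Tcf7 (-0.19 to 0.35), Tcf7l1 (-0.0798 to 0.23), Tcf7l2 (-0.0202 to 0.36), Wnt11 (-0.044 to 0.40), Wnt6 (-0.082 to 0.90), Wnt7b (-0.26 to 0.37), Znrf3 (-0.0597 to 0.20). The alternatives on pathway genes were added after seeing the data.

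A replicate block on column numbers (2 with 1, 8 with 7) gave 11 members higher and 7 lower, 1636 rows higher and 1872 lower, and 17 and 31 pathway genes, from 1 residual degree of freedom. The deviations from group means correlated at 0.63 (2 with 1). With 2 libraries per group the value for 2 with 7, -0.63, must be the same with its sign flipped. It therefore adds nothing. The labels state no such pairing and only 2 pairs exist. The 4 called members kept their call under the block, but its prior degrees of freedom were infinite, so each row's own spread had no weight. With that many rows called, the block is no check on these 4 genes.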

Other observations

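Fzd10os, the long noncoding RNA named for its place beside Fzd10 and listed under the clone name 5930412G12Rik, is outside the set. It had 162 and 169 normalized counts with doxycycline, against 144 and 135 without it, and did not pass (0.24 ± 0.16; limma, adjusted p = 0.450). Fzd10, the receptor gene, had 262 and 255 normalized counts with doxycycline, against 240.4 and 219 without it (0.17 ± 0.13; limma, adjusted p = 0.519). In both genes the doxycycline libraries lay above both others, as they did in 26.7% of all rows. The RefSeq spans of these neighbours do not overlap, though the sources used here do not give whether strand was used in counting.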
